A study of Rattus norvegicus with 24 samples.

Results

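The transcripts of 7 secreted muscle factors were followed in rat quadriceps muscle: myostatin (Mstn), follistatin (Fst), the insulin-like growth factors Igf1 and Igf2, interleukin 15 (Il15), the irisin precursor Fndc5 and the meteorin-like factor Metrnl. They were taken by gene symbol as the 7 matching rows of the 21067 genes in the deposited table, each symbol having 1 row. All 7 passed the filter on low values that left 14772 genes for testing.

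Skeletal muscle releases proteins, called myokines when they are secreted by the fibers themselves, that act on the muscle or on other organs. Myostatin is a TGF-β family ligand that restrains muscle growth through activin receptors and SMAD proteins, and follistatin binds and blocks it, whereas the insulin-like growth factors promote growth through insulin and IGF receptors and AKT. Interleukin 15 signals through JAK and STAT5 proteins, while irisin, which is cleaved from the FNDC5 membrane protein, and METRNL are myokines that have been linked to exercise and to fat tissue.

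RNA came from the quadriceps femoris of 24 Sprague-Dawley rats that were 6 weeks old at the start, with 1 poly(A) library per rat and 6 rats in each of 4 groups, called control, treadmill, catgut 1 and catgut 2. The control rats were fed normally and did not train, whereas the rats of the other groups trained on a treadmill for 7 weeks and ran to exhaustion before sampling. In acupoint catgut embedding, an absorbable collagen thread is left under the skin and in the muscle at an acupoint. Before training, catgut group 1 was embedded at Bai Hui, Qian Shen, Yang Wa, Han Gou, Qiang Feng and Xie Qi, and catgut group 2 at these points and also at Fei Shu. No group was embedded without training, so in the comparisons of the catgut groups with the control group embedding and training cannot be told apart, and in all trained groups the weeks of training and the last run cannot be told apart.

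The total count per library was 45945938 to 78278080. The summed level of 6 skeletal muscle markers, including Acta1 and Ckm, was 62031 to 85643 FPKM (fragments per kilobase of transcript, scaled to the mapped fragments of each library), against 0.116 to 30.2 FPKM for 4 adipocyte markers. Control replicate 2 and treadmill replicates 2 and 3 stood apart, with summed levels of 7 liver transcripts of 206, 45.3 and 333 FPKM, where the other libraries had 9.90 to 18.8 FPKM. Both sexes were used, but the labels give no sex per library. Y-linked transcripts summed to at least 8.45 FPKM in 11 libraries and to at most 0.0287 FPKM in the other 13. They were present in 3 of 6 libraries of the control group, of the treadmill group and of catgut group 1, in each case replicates 4 to 6, and in 2 of 6 libraries of catgut group 2, replicates 1 and 5, although the methods describe equal numbers of male and female rats in each group.

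The most abundant of the 7 transcripts over the 24 libraries was Fndc5, with a mean of 33.1 FPKM, followed by Il15 with 29.04 FPKM. These means were higher than those of 92.5% and 91.7% of the listed genes. Igf2 (6.23 FPKM), Mstn (5.52 FPKM) and Metrnl (3.07 FPKM) were intermediate, and Fst (1.302 FPKM) and Igf1 (0.981 FPKM) were the lowest. The upstream sequences of Fndc5 and Il15, the highest members, and of Igf1, the lowest, are given here to show what lies before genes at the ends of this range. Each is the 250 bases before the annotated start, 5′ to 3′ on the gene's strand, from RefSeq on the GRCr8 build, and capitals mark GGGCGG or its reverse complement CCGCCC, the letters of a GC box.
Fndc5: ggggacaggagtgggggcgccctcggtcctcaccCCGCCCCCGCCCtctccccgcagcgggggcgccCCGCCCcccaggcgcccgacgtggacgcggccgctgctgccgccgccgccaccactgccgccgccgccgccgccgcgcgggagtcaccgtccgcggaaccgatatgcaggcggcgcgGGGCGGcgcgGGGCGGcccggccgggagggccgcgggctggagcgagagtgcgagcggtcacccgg
Il15: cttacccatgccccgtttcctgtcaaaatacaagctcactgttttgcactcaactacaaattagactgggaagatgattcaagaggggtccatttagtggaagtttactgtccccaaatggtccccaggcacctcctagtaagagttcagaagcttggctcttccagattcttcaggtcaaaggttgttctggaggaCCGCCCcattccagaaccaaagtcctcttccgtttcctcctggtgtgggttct
Igf1: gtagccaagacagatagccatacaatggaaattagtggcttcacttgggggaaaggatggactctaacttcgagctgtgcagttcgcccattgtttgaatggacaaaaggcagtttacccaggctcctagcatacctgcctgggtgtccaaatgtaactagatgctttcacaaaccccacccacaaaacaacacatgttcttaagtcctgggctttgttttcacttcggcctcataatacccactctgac
The Fndc5 window lies at chr5:146767809-146768058, the Il15 window at chr19:42544456-42544705 and the Igf1 window at chr7:24172282-24172531, all on the + strand of GRCr8. The Fndc5 window held these letters 5 times and was 84.0% G and C, whereas the Il15 window held them 1 time at 48.4% and the Igf1 window 0 times at 46.8%. The Metrnl window, at chr10:107461898-107462147, held them 4 times, and the windows of the 2 Igf2 starts 0 and 1 times. Of 33469 RefSeq windows of the same length, 30.5% held the letters at least 1 time and 7.41% at least 3 times. No window was matched for Mstn or Fst.

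**Figure D1:**
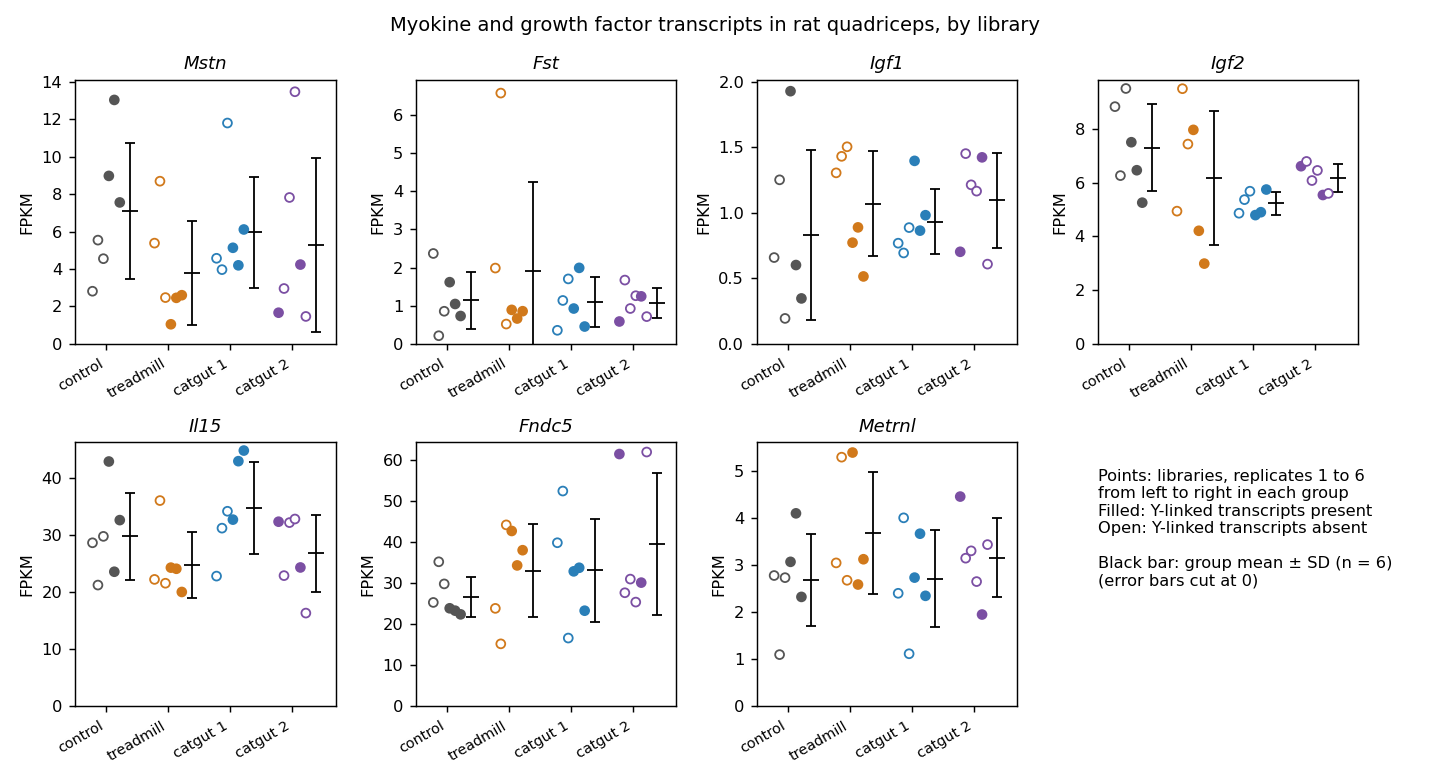
Level of each of the 7 transcripts in FPKM (y axis, from 0) in the 6 libraries of each group (x axis), with the group mean ± SD as a black bar; filled points are libraries with Y-linked transcripts and open points those without. The groups overlap for every gene, the 3 filled control points of Mstn (7.56 to 13.0 FPKM) lie above all filled points of the trained groups, and treadmill replicate 2 stands alone for Fst at 6.58 FPKM. The share of all genes that separate the filled points in this way was not computed.

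The first question was whether training, with or without embedding, moved these transcripts. Over 6 comparisons and 7 genes, 0 of 42 tests reached an adjusted p under 0.05 by edgeR, and 0 met the criterion of the study's methods, a ratio of group means over 1.5 in either direction with an unadjusted p under 0.05. DESeq2 and limma also gave 0 adjusted calls. For treadmill against control, 0 of 7 compares with 0.0542% of all tested genes called at the adjusted threshold and 2.85% by the criterion. The corresponding shares of all genes were 0.0203% and 4.62% for catgut 1 against control, 0.508% and 5.95% for catgut 2 against control, and 0.0474% and 3.12% for catgut 1 against treadmill. They were 0.237% and 3.76% for catgut 2 against treadmill, and 0.00677% and 1.25% for catgut 2 against catgut 1. At these shares, a count of 0 in 7 does not set the 7 transcripts apart from other genes.

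Unadjusted p-values under 0.05 were found by edgeR for Igf2 in catgut 1 against control (1 of 7, 9.84% of all genes) and in catgut 2 against catgut 1 (1 of 7, 3.26% of all genes), and for Il15 in catgut 1 against treadmill (1 of 7, 6.93% of all genes). The other comparisons had 0 of 7, beside 9.12% of all genes for treadmill against control, 16.4% for catgut 2 against control and 10.7% for catgut 2 against treadmill. DESeq2 added Mstn in treadmill against control (with 1485 of 14772 genes) and Fndc5 in catgut 2 against control (with 2571 of 14772). Limma on log2(FPKM + 1) also added Mstn in treadmill against control (with 1101 of 14772). With the p of DESeq2 or limma, Mstn met the criterion there, where 466 and 375 of all tested genes did. The median log2 fold change of the 7 transcripts was between -0.18 (catgut 1 against treadmill) and 0.37 (treadmill against control), and that of all tested genes was between -0.012 and 0.0070 over the 6 comparisons.

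**Figure D2:**
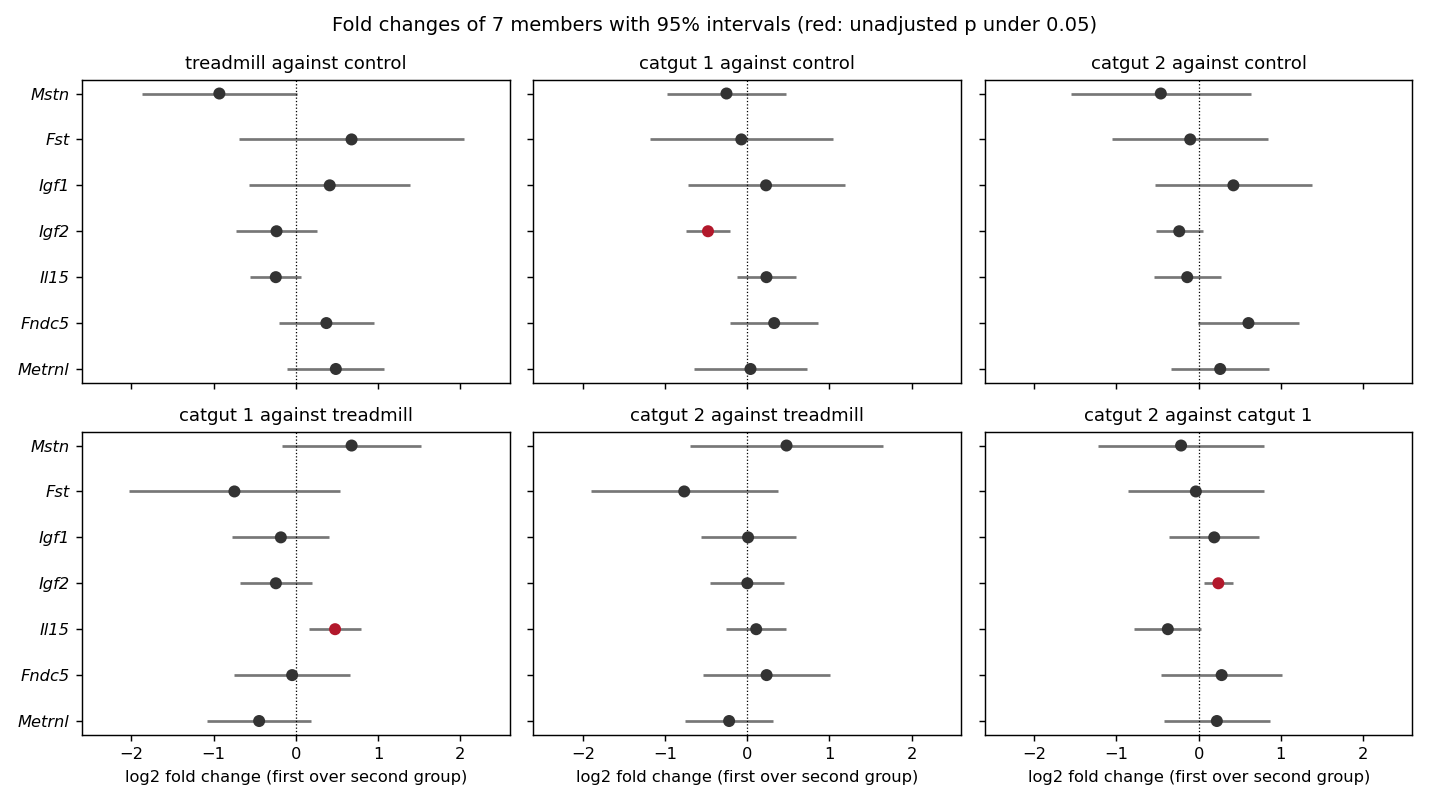
Log2 fold change of each transcript (x axis, first over second group) with its 95% interval from edgeR, 1 panel per comparison; red points have an unadjusted p under 0.05. Only Igf2 (2 comparisons) and Il15 (1 comparison) are red, and the intervals of Mstn and Fst are wider than those of Igf2 and Il15 in all 6 panels.

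Mstn, the growth inhibitor, lies at chr9:53309598-53315915 on the - strand as the table lists it, on a build that the sources used here do not state. Its level was 2.81 to 13.0 FPKM in the control group (median 6.55) and 1.04 to 8.69 FPKM in the treadmill group (median 2.53). It was 3.96 to 11.8 FPKM in catgut group 1 (median 4.85) and 1.46 to 13.5 FPKM in catgut group 2 (median 3.59). The groups overlapped, and all contained both low and high libraries. In order, the means were 7.08 ± 3.64 FPKM (control), 5.96 ± 2.96 (catgut 1), 5.27 ± 4.65 (catgut 2) and 3.77 ± 2.80 (treadmill; SD, n = 6 each), and no neighbors in this order differed by more than their spread. In treadmill against control, the log2 fold change was -0.93 (95% interval -1.87 to 0.013), with an adjusted p of 0.551 by edgeR and an exact permutation p of 0.0866. The unadjusted p was 0.0527 by edgeR, 0.0203 by DESeq2 and 0.0497 by limma. Without the libraries holding liver transcripts, the fold change was -1.28 with an adjusted p of 0.369 by edgeR.

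In the libraries with Y-linked transcripts, the treadmill and control values of Mstn did not overlap, and 15.3% of all tested genes had an unadjusted p under 0.05 in this comparison of 3 with 3 libraries. Mstn was at 8.98, 13.0 and 7.56 FPKM in these control libraries and at 1.04, 2.45 and 2.59 FPKM in these treadmill libraries. In catgut group 1 the values were 5.13, 4.19 and 6.11 FPKM, and in catgut group 2 they were 1.66 and 4.23 FPKM. All 8 trained libraries with Y-linked transcripts were therefore lower than the 3 control libraries. This split was chosen after the data were seen, and the share of all genes that separate these libraries in the same way was not computed. The slow-fiber myosin Myh7 also separated the treadmill from the control libraries there, at 0.098, 2.71 and 2.83 FPKM in the control libraries and at 111, 24.8 and 128 FPKM in the treadmill libraries, and its part in the Mstn values was not tested. Among libraries without Y-linked transcripts, Mstn was at 2.81, 5.54 and 4.55 FPKM in the control group and at 5.38, 8.69 and 2.47 FPKM in the treadmill group, and these overlapped. The log2 fold change of treadmill against control was -2.12 (SE 0.456, unadjusted p = 0.000742 and adjusted p = 0.150 by edgeR) with Y-linked transcripts and 0.22 (SE 0.437, adjusted p = 0.993 by edgeR) without them. The difference between these effects, tested in the same model, was -2.34 (95% interval -3.72 to -0.96, unadjusted p = 0.00338, adjusted p = 0.521 by edgeR), and 9.46% of all tested genes had an unadjusted p under 0.05 for such a difference. For catgut 1 against control, the effects were -0.86 and 0.56 and differed by -1.42 (unadjusted p = 0.0227, adjusted p = 0.896 by edgeR), and for catgut 2 against control they were -1.63 and 0.47 and differed by -2.10 (unadjusted p = 0.0545, adjusted p = 0.523 by edgeR). These 3 comparisons share the control libraries. Of 42 such differences over the 7 members and 6 comparisons, 6 had an unadjusted p under 0.05 and 0 had an adjusted p under 0.05 by edgeR. These were 1 of 7 in treadmill against control, 2 of 7 in catgut 1 against control (4.75% of all genes), 1 of 7 in catgut 2 against control (9.49%), 2 of 7 in catgut 1 against treadmill (3.71%) and 0 of 7 in catgut 2 against treadmill (2.61%) and against catgut 1 (2.36%), and the comparisons share libraries. Over all 24 libraries with group as a term, Mstn itself was at a log2 ratio of -0.31 (SE 0.365, adjusted p = 0.800 by edgeR) between libraries with and without Y-linked transcripts. The library of highest Mstn in catgut group 1, replicate 3 at 11.8 FPKM, and the highest in catgut group 2, replicate 4 at 13.5 FPKM, held no Y-linked transcripts. Presence of Y-linked transcripts and replicate number go together in all groups but catgut group 2 and cannot be told apart in those groups.

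Fst, which encodes the inhibitor of myostatin and activins (chr2:46538700-46544457, - strand), was 0.209 to 2.37 FPKM in the control group (median 0.947) and 0.515 to 6.58 FPKM in the treadmill group (median 0.870). It was 0.351 to 1.99 FPKM in catgut group 1 (median 1.03) and 0.583 to 1.67 FPKM in catgut group 2 (median 1.08). All groups overlapped, and the treadmill mean of 1.91 ± 2.35 FPKM rested on replicate 2, while the means of the control (1.14 ± 0.757), catgut 1 (1.09 ± 0.659) and catgut 2 (1.07 ± 0.404) groups were within their spread (SD, n = 6). In treadmill against control, the log2 fold change was 0.68 (95% interval -0.69 to 2.05, adjusted p = 0.769 by edgeR), and it was -0.14 when treadmill replicate 2 was left out. That library also held the highest summed level of the 5 macrophage markers, 103 FPKM, over a range of 15.8 to 103 FPKM in all libraries, and the part of this in the result was not tested. The counts of Fst were between 19 and 450.

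Igf1 (chr7:28412198-28486609, + strand), a growth factor for muscle fibers and their stem cells, was the least abundant of the 7. Its level was 0.193 to 1.93 FPKM in the control group (median 0.630), 0.514 to 1.505 FPKM in the treadmill group (median 1.10), 0.693 to 1.40 FPKM in catgut group 1 (median 0.876) and 0.608 to 1.45 FPKM in catgut group 2 (median 1.19). The groups overlapped, and the control group held both the lowest and the highest library. The means in order were 1.09 ± 0.360 FPKM (catgut 2), 1.07 ± 0.402 (treadmill), 0.932 ± 0.249 (catgut 1) and 0.830 ± 0.650 (control), and neighbors did not differ by more than their spread. The adjusted p-values by edgeR were 0.693 or higher in all 6 comparisons. In catgut 1 against treadmill, the log2 fold change was 0.52 in libraries with Y-linked transcripts and -0.83 in those without, a difference of 1.35 (95% interval 0.40 to 2.29, unadjusted p = 0.00936, adjusted p = 1 by edgeR). Of all tested genes, 3.71% had an unadjusted p under 0.05 by edgeR for such a difference. The treadmill libraries without Y-linked transcripts, at 1.31 to 1.505 FPKM, were all higher than those with them, at 0.514 to 0.889 FPKM. The share of all genes that separate these libraries in this way was not computed. Of the treadmill libraries without Y-linked transcripts, replicates 2 and 3 held liver transcripts. Igf1 correlated positively with all 7 liver markers (r = 0.29 to 0.56), but Spearman's rho was as low as 0.054 (Fgb) and at most 0.66 (Tf). Within catgut group 2, r was -0.68 (Fga) to 0.87 (Tf). Igf2 was also positive with all 7 liver markers (r = 0.13 to 0.39). Without the liver transcript libraries, the log2 fold change of Igf1 in catgut 1 against treadmill was 0.059, where all libraries gave -0.18. The part of liver transcripts in these values was not tested.

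Igf2 (chr1:215828102-215846911, - strand), a growth factor with a major role before birth, was 5.26 to 9.52 FPKM in the control group (median 6.99) and 2.99 to 9.51 FPKM in the treadmill group (median 6.19). It was 4.80 to 5.75 FPKM in catgut group 1 (median 5.14) and 5.54 to 6.80 FPKM in catgut group 2 (median 6.27). The catgut groups were narrow, with coefficients of variation of 8.23% and 8.54%, against 22.3% in the control group and 40.6% in the treadmill group. Catgut group 1 had a mean of 5.23 ± 0.430 FPKM and the control group one of 7.31 ± 1.63 FPKM (SD, n = 6 each), a log2 fold change of -0.48 (SE 0.126, 95% interval -0.75 to -0.20). The adjusted p was 0.295 by edgeR and 0.0534 by DESeq2, the lowest of any member under any setting, and the exact permutation p was 0.00866. In libraries without Y-linked transcripts this fold change was -0.69, and in those with them it was -0.23, a difference of 0.46 (unadjusted p = 0.0436, adjusted p = 0.896 by edgeR). For catgut 2 against control, the corresponding values were -0.48 and 0.085, a difference of 0.57 (unadjusted p = 0.0239, adjusted p = 0.521 by edgeR). Catgut group 2, at a mean of 6.19 ± 0.528 FPKM, had 4 of 6 libraries over all libraries of catgut group 1, with a log2 fold change of 0.24 (95% interval 0.060 to 0.42), an adjusted p of 1 by edgeR and an exact permutation p of 0.0130. The treadmill mean, 6.18 ± 2.51 FPKM, did not differ from either by more than its spread. The Igf2 row overlaps that of the microRNA gene Mir483 on the same strand, and no other member overlapped another row.

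Il15 (chr19:23542889-23554594, - strand), a cytokine made in muscle fibers, was abundant and one of the steadier transcripts, with a 2.74-fold span over all libraries. It was 21.3 to 42.9 FPKM in the control group (median 29.2), 20.04 to 36.1 FPKM in the treadmill group (median 23.2), 22.8 to 44.8 FPKM in catgut group 1 (median 33.5) and 16.3 to 32.8 FPKM in catgut group 2 (median 28.3). The groups overlapped, with 2 of 6 libraries of catgut group 1 over all treadmill libraries. The means in order were 34.8 ± 8.10 FPKM (catgut 1), 29.8 ± 7.65 (control), 26.8 ± 6.74 (catgut 2) and 24.7 ± 5.78 (treadmill), and neighbors did not differ by more than their spread. Catgut 1 against treadmill gave a log2 fold change of 0.48 (SE 0.146, 95% interval 0.16 to 0.79), with an adjusted p of 0.384 by edgeR and an exact permutation p of 0.0411. In libraries with Y-linked transcripts it was 0.73, and 4.71% of all tested genes had an unadjusted p under 0.05 by edgeR there. The values, 32.7 to 44.8 FPKM in catgut group 1 and 20.04 to 24.3 FPKM in the treadmill group, did not overlap. The share of all genes that separate these libraries in this way was not computed. In libraries without Y-linked transcripts the log2 fold change was 0.18, and the difference between these effects was 0.55 (unadjusted p = 0.0323, adjusted p = 1 by edgeR). Over all libraries with group as a term, Il15 was at a log2 ratio of 0.26 (SE 0.113, adjusted p = 0.369 by edgeR) in libraries with Y-linked transcripts. For catgut 2 against catgut 1, the log2 fold change was -0.38 (95% interval -0.78 to 0.033, adjusted p = 1 by edgeR).

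Fndc5 (chr5:147323240-147330266, + strand) was the highest member. It was 22.4 to 35.2 FPKM in the control group (median 24.6) and 15.2 to 44.2 FPKM in the treadmill group (median 36.2). It was 16.6 to 52.5 FPKM in catgut group 1 (median 33.3) and 25.4 to 62.0 FPKM in catgut group 2 (median 30.6). The groups overlapped, and the control group was the narrowest, with a coefficient of variation of 18.5%, where the trained groups had 34.4% to 43.5%. The means in order were 39.6 ± 17.2 FPKM (catgut 2), 33.2 ± 12.6 (catgut 1), 33.1 ± 11.4 (treadmill) and 26.7 ± 4.94 (control), and neighbors did not differ by more than their spread. Catgut 2 against control gave a log2 fold change of 0.61 (95% interval -0.0049 to 1.22), with an adjusted p of 0.308 by edgeR and an exact permutation p of 0.0931. Replicates 1 and 6 of catgut group 2, at 61.5 and 62.0 FPKM, were over all control libraries, and without 1 of these libraries the fold change was 0.38 or 0.41. The slow myosin Myh7 moved with this result: its mean was 36.1 ± 55.7 FPKM in the control group and 155 ± 142 FPKM in catgut group 2 (SD, n = 6), and 417 FPKM in replicate 6. The Myh7 log2 fold change was 2.12 (adjusted p = 0.409 by edgeR). With the Myh7 level as a covariate, the Fndc5 fold change was -0.018 (adjusted p = 0.986 by edgeR). This covariate was chosen after the data were seen, and the part of Myh7 in the Fndc5 result was not tested. Among libraries with Y-linked transcripts, Fndc5 was at 22.4 to 23.9 FPKM in the control group and at 34.3 to 42.7 FPKM in the treadmill group, and these did not overlap. Myh7 separated the same libraries, at 0.098 to 2.83 FPKM in the control group and 24.8 to 128 FPKM in the treadmill group, and its part in the Fndc5 values was not tested. Of all tested genes, 15.3% had an unadjusted p under 0.05 by edgeR there, and the share that separate these libraries without overlap was not computed. In these libraries the log2 fold change of Fndc5 was 0.88 (adjusted p = 0.275 by edgeR), against -0.16 in libraries without Y-linked transcripts, a difference of 1.04 (95% interval -0.027 to 2.10, adjusted p = 0.521 by edgeR).

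Metrnl (chr10:110893232-110907243, + strand), a secreted factor made in muscle and by macrophages, was 1.10 to 4.11 FPKM in the control group (median 2.76) and 2.59 to 5.40 FPKM in the treadmill group (median 3.09). It was 1.12 to 4.01 FPKM in catgut group 1 (median 2.57) and 1.95 to 4.46 FPKM in catgut group 2 (median 3.23). The groups overlapped, with 2 of 6 treadmill libraries over all control libraries. The means were 3.69 ± 1.301 FPKM (treadmill), 3.16 ± 0.838 (catgut 2), 2.72 ± 1.04 (catgut 1) and 2.69 ± 0.982 (control), and neighbors did not differ by more than their spread. The largest log2 fold change was 0.49 in treadmill against control (95% interval -0.10 to 1.08, adjusted p = 0.603 by edgeR and exact permutation p = 0.169). Its effects in libraries with and without Y-linked transcripts differed by -0.24 to 0.046 in the 6 comparisons, with adjusted p-values of 0.892 or higher by edgeR.

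Most of the variation of these transcripts lay within groups. On the log2(FPKM + 1) scale, group explained 4.34% (Fst) to 24.4% (Il15) of the variance over the 24 libraries. Of the variance of Fndc5, 69.9% was shared with Myh7 and 11.5% lay between groups, and for Mstn these shares were 36.1% and 17.4%. Of the variance of Fst, 46.5% was shared with the summed level of 6 fibroblast markers. These partners and the relations that follow were picked from 364 computed pairs of a member with another transcript or list after their values were seen. They are descriptions over 24 libraries, without a test. Libraries differ in depth and cell makeup at the same time, and the correlation of a member with the total count lay between -0.35 and 0.33.

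Fndc5 and Mstn ran opposite to each other, with a Pearson's r of -0.75 and a Spearman's rho of -0.76. The value of r was -0.78 within groups and -0.77 without the 2 libraries farthest from the median of Mstn. In single groups it was -0.44 (control), -0.93 (treadmill), -0.91 (catgut 1) and -0.80 (catgut 2), each over 6 libraries. Fndc5 was high where the slow myosin Myh7 (r = 0.84, rho = 0.89) and myoglobin, Mb (r = 0.86), were high, and low where the fast myosin Myh1 was high (r = -0.70). Mstn showed the reverse, with r = -0.60 for Myh7, -0.63 for Mb and 0.63 for Myh1. The fast myosins Myh4 and Myh2 were not analysed here. The transcripts most like Fndc5 were Sdhb (r = 0.90), Ldhb (0.90) and Actn2 (0.89), which encode a subunit of succinate dehydrogenase, the heart-type lactate dehydrogenase subunit and an α-actinin of the Z disc. Those most like Mstn were Mtmr6 (0.90), Rab2a (0.89) and Phospho2 (0.88), and Actn2 was the most opposed (-0.86). The part of fiber type makeup in these relations was not tested.

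**Figure D3:**
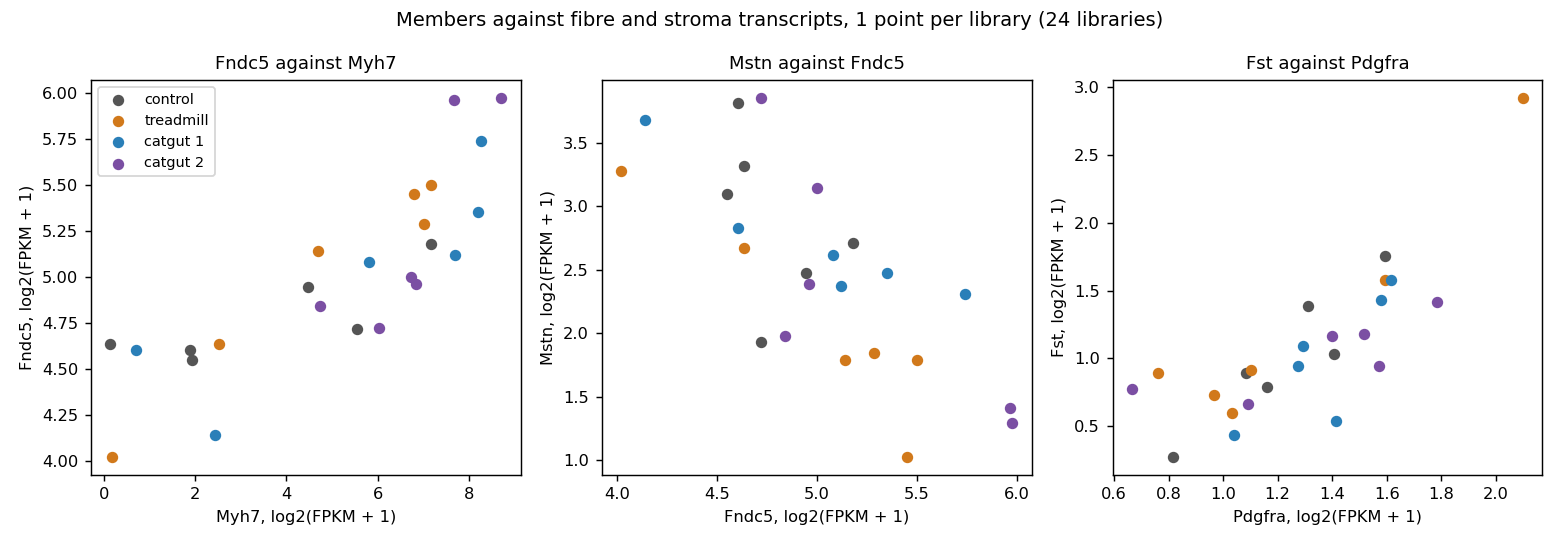
Fndc5 against Myh7, Mstn against Fndc5 and Fst against Pdgfra, all as log2(FPKM + 1), with 1 point per library colored by group. Fndc5 climbs with Myh7 (r = 0.84), Mstn declines with Fndc5 (r = -0.75) and Fst climbs with Pdgfra (r = 0.80), with treadmill replicate 2 at the upper right of the last panel.

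Fst went with markers of connective tissue and of macrophages. It correlated positively with all 6 fibroblast and fibro-adipogenic markers (r = 0.50 to 0.80, the highest for the receptor Pdgfra) and with all 5 macrophage markers (r = 0.74 to 0.83, the highest for the receptor Csf1r). Without the 2 libraries farthest from the median of Fst, r was 0.72 for Pdgfra and 0.75 for Csf1r, and within single groups it was 0.80 to 0.94 for Pdgfra. The summed level of the fibroblast list was 81.8 to 579 FPKM in the control group, 121 to 522 FPKM in the treadmill group, 119 to 317 FPKM in catgut group 1 and 115 to 589 FPKM in catgut group 2, and 0 of its markers were absent. In whole muscle, fewer cells of a type and less RNA per cell cannot be told apart. The transcripts most like Fst were Gfpt2 (r = 0.91), Fbn1 (0.90), the gene of the microfibril protein fibrillin 1, and Fcmr (0.88). Fndc5 had negative values with all of the same 11 markers, from -0.70 to -0.46. The positive sign was not particular to Fst. Mstn, Igf1, Igf2, Il15 and Metrnl were also positive with all 11, at 0.17 to 0.56 for the fibroblast and 0.18 to 0.55 for the macrophage markers.

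The other members had weaker partners. Igf1 was most like Igfbp5 (r = 0.75), which encodes an IGF binding protein, Apoe (0.70) and Snx4 (0.70). Igf2 was most like Gmfg (0.71), Lrig3 (0.69) and Ddx59 (0.69), and Il15 was most like Arl11 (0.81), the lysosomal protease gene Ctsl (0.78) and Gmps (0.73). Metrnl was most like the ribosomal protein genes Rpl10a (0.75) and Rpl28 (0.74). Igf1 and Igf2 did not run together (r = 0.10).

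**Figure D4:**
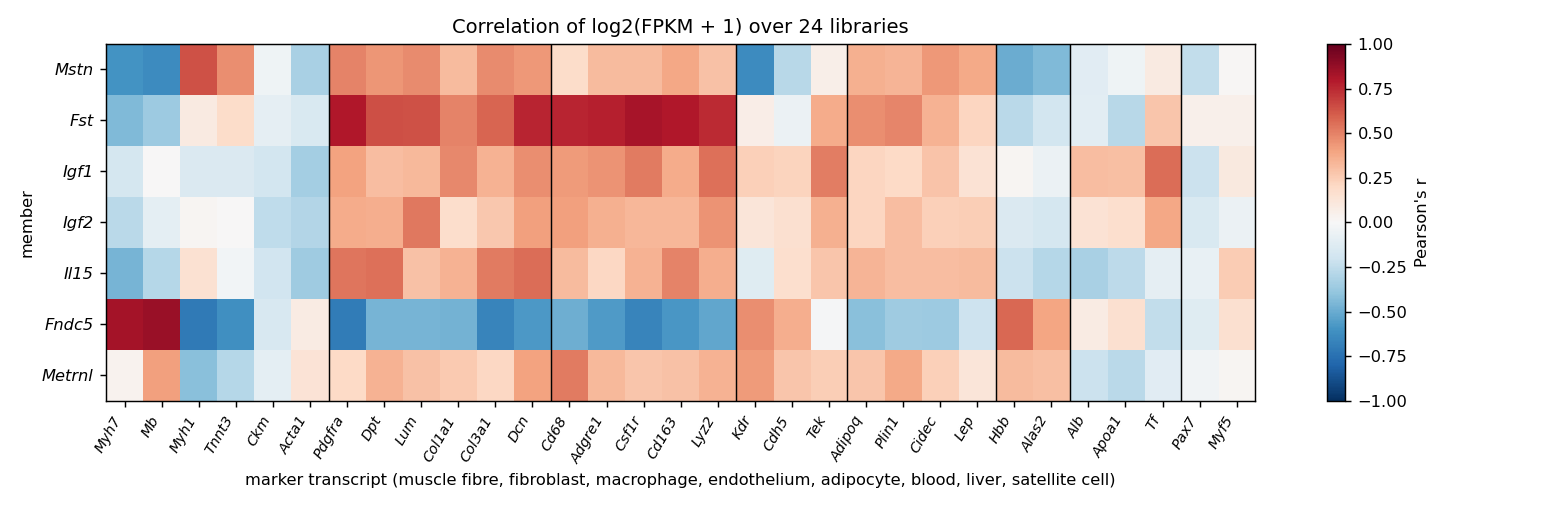
Pearson's r of log2(FPKM + 1) over 24 libraries between each of the 7 transcripts (rows) and marker transcripts of muscle fibers and other cell types (columns, divided by vertical lines), from blue for -1 to red for 1. Fst is red across the fibroblast and macrophage columns, while Fndc5 is red for Myh7 (0.84) and Mb (0.86) and blue for those columns.

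Receptors, inhibitors and signaling genes of these factors, and a list of other secreted muscle factors, were also examined. Of these genes, 63 were tested in 5 lists, 16 of them in the list of other secreted factors. Of the 63, 1 had an adjusted p under 0.05 by edgeR in catgut 2 against control (1.59%, beside 0.508% of all tested genes). In catgut 2 against treadmill it was also 1 (1.59%, beside 0.237%). The other 4 comparisons had 0, beside 0.00677% to 0.0542% of all tested genes. The lists were chosen with earlier results of these data known, so these counts do not measure an excess. By the criterion, the count was 1 for treadmill against control (1.59%, beside 2.85% of all tested genes), 6 for catgut 1 against control (9.52%, beside 4.62%), 5 for catgut 2 against control (7.94%, beside 5.95%), 4 for catgut 1 against treadmill (6.35%, beside 3.12%), 2 for catgut 2 against treadmill (3.17%, beside 3.76%) and 2 for catgut 2 against catgut 1 (3.17%, beside 1.25%).

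In both cases the called gene was Stat5b, which encodes a transcription factor downstream of JAK kinases, interleukin 15 and growth hormone. Its level was 21.8 to 27.3 FPKM in the control group, 21.4 to 37.3 FPKM in the treadmill group, 17.3 to 31.1 FPKM in catgut group 1 and 11.6 to 22.4 FPKM in catgut group 2. In catgut group 2, 5 of 6 libraries were lower than every control library, and 5 of 6 were lower than every treadmill library. Against treadmill, Stat5b was lower in the rats of catgut group 2, with a log2 fold change of -0.76 (SE 0.126, edgeR adjusted p = 0.0343, exact permutation p = 0.00649), and against control it was lower as well, at -0.66 (SE 0.118, edgeR adjusted p = 0.0392, exact permutation p = 0.00649). The log2 fold change of catgut 2 against catgut 1 was -0.43 (adjusted p = 1 by edgeR). Leaving out 1 library gave adjusted p-values by edgeR of 0.0254 to 0.0855 against treadmill and 0.0176 to 0.0948 against control, with a fold change of -0.86 to -0.60. Against treadmill, the call held only without treadmill replicate 5 or catgut 2 replicate 3, and against control only without control replicate 2 or 4 or catgut 2 replicate 3 or 4. The adjusted p-values were 0.167 and 0.0793 by limma and 7.37e-06 and 4.77e-05 by DESeq2. With the replicate number as a block, both calls were lost, with adjusted p-values by edgeR of 0.103 against treadmill and 0.0748 against control, and with the Y-linked level as a covariate these were 0.0022 and 0.0048. The call against treadmill was also lost with the Myh7 covariate (adjusted p = 0.0602 by edgeR) and without the libraries holding liver transcripts (adjusted p = 0.0793 by edgeR).

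Of the other genes of the interleukin 15 list, which had 7 tested genes with Stat5b, 0 were called. The kinase gene Jak3 met the criterion in the lower direction in both catgut groups against control and in catgut 1 against treadmill, with log2 fold changes of -1.31, -1.15 and -0.97 and adjusted p-values of 0.401, 0.185 and 0.721 by edgeR. Its means were 0.360 (control), 0.278 (treadmill), 0.139 (catgut 1) and 0.156 FPKM (catgut 2). Control replicate 4, at 0.942 FPKM, stood apart from the next control library at 0.308 FPKM, and without it the fold changes against control were -0.84 and -0.69. Treadmill replicate 2, at 0.673 FPKM, likewise stood apart from the next treadmill library at 0.304 FPKM, and without it the log2 fold change of catgut 1 against treadmill was -0.61. Control replicate 4 and treadmill replicate 2 also held the highest summed levels of macrophage markers in their groups, 65.7 and 103 FPKM. The part of this in the Jak3 values was not tested. The receptor Il15ra had means of 1.29 to 1.55 FPKM over the 4 groups and did not meet the criterion in any comparison.

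In the myostatin and activin list, 0 of 16 tested genes had an adjusted p under 0.05 in any comparison by edgeR. Acvr1b, a type I receptor for activins, had a mean of 9.91 ± 1.86 FPKM in the treadmill group (SD, n = 6), and the other groups had means of 14.2 to 14.9 FPKM. It met the criterion in catgut 1 against treadmill (log2 fold change 0.58, SE 0.151, adjusted p = 0.291 by edgeR and 0.0376 by DESeq2), where 4 of 6 libraries were over all treadmill libraries. Smad7, an inhibitor of TGF-β signaling, was at 2.02 FPKM in the control group and 3.15 and 3.09 FPKM in catgut groups 1 and 2 and met the criterion in both comparisons (log2 fold changes 0.64 and 0.61, adjusted p = 0.401 and 0.142 by edgeR). Inhbb, a subunit of activin B, was at 0.503 FPKM in the control group and 1.05 FPKM in catgut group 1 (log2 fold change 1.07, adjusted p = 0.416 by edgeR).

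In the IGF list, 0 of 18 tested genes were called in any comparison by edgeR. Irs2, an adapter of the insulin and IGF receptors, met the criterion in catgut 1 against control, with 5.18 against 3.08 FPKM (log2 fold change 0.74, adjusted p = 0.401 by edgeR), and 5 of 6 libraries of catgut group 1 were over all control libraries. Igfbp1, a binding protein made mainly by the liver, met it in the lower direction for both catgut groups against control. It was near the floor, with libraries at 0 FPKM in every group. Its highest values, 0.880 FPKM in control replicate 2 and 0.882 FPKM in treadmill replicate 3, were in libraries that held liver transcripts. Without control replicate 2 the log2 fold changes went from -3.28 to -1.99 (catgut 1) and from -2.79 to -1.50 (catgut 2). The part of liver transcripts in the Igfbp1 values was not tested. The receptor Igf1r had means of 0.624 to 0.692 FPKM and Igf2r means of 8.73 to 9.21 FPKM over the groups, and neither met the criterion in any comparison.

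Among 6 tested genes around Fndc5 and Metrnl, 0 were called or met the criterion. Ppargc1a, a coactivator known to drive Fndc5, had means of 2.14 to 2.71 FPKM, and its correlation with Fndc5 was 0.32 over 24 libraries. Of 16 other secreted factors, 0 had an adjusted p under 0.05 by edgeR, and Vegfa, the angiogenic growth factor, met the criterion in catgut 2 against control with 62.7 against 41.3 FPKM (log2 fold change 0.60, adjusted p = 0.226 by edgeR). Cxcl12 (log2 fold change -0.64) and Nampt (0.57) met it in catgut 1 against treadmill, with adjusted p-values of 0.356 and 0.485 by edgeR. Apln met it in catgut 1 against control (-0.64) and catgut 2 against catgut 1 (0.89), Mdk in catgut 2 against catgut 1 (0.66) and Angptl4 in catgut 2 against treadmill (-1.08), with adjusted p-values of 0.435 or higher by edgeR. Without catgut 2 replicate 1, the highest library at 1.97 FPKM, the log2 fold change of Apln in catgut 2 against catgut 1 was 0.50, and without treadmill replicate 3 that of Angptl4 was -0.67. Il6, the exercise-responsive interleukin 6, met it in treadmill against control, but its levels were 1.82 and 1.14 FPKM in treadmill replicates 2 and 4 and 0.179 FPKM or less in the other 4 treadmill libraries.

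**Figure D5:**
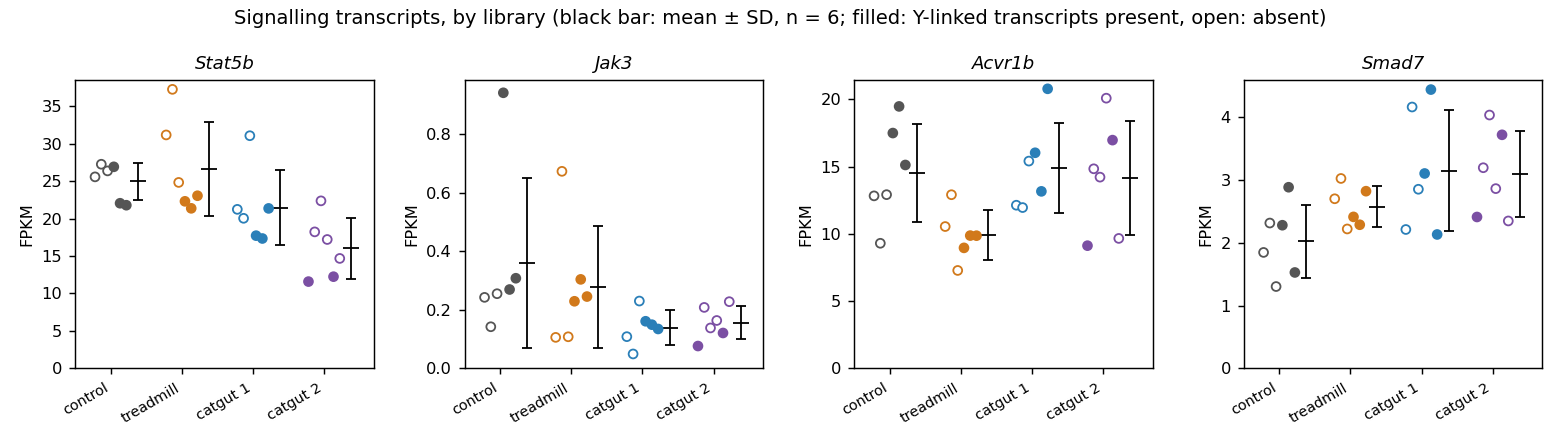
Level of Stat5b, Jak3, Acvr1b and Smad7 in FPKM (y axis, from 0) in each library of the 4 groups, with the group mean ± SD (n = 6) as a black bar and filled points for libraries with Y-linked transcripts. Stat5b lies between 11.6 and 22.4 FPKM in catgut group 2 and between 21.8 and 27.3 FPKM in the control group, and the single high control point of Jak3 is at 0.942 FPKM.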

How the data were processed

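RNA-seq libraries of quadriceps muscle from 24 rats were analysed, with 6 per group as the labels give them. The authors deposited 1 table that gives, per gene and library, an FPKM value and a whole-number count; FPKM is their normalization to transcript length and mapped fragments. The submitters' processing notes list HISAT2 2.0 and StringTie 1.3.0 without a role, and the genome build is not given in the sources used here. For 6854 genes with at least 300 counts, 99.8% of values had a count to FPKM ratio within 0.2% of the gene's constant, so the deposited counts were treated as estimated counts. Their commonest values above 0 were 4 and 8.

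The 14772 genes whose mean FPKM reached 0.1 were tested, with R 4.3.3, edgeR 4.0.16 (quasi-likelihood, TMM, each comparison fitted alone, two-sided) and Benjamini-Hochberg adjustment over all genes tested. The exact permutation test, two-sided, used log2(FPKM + 1). DESeq2 1.42.0, limma 3.58.1 on log2(FPKM + 1) or log2(FPKM + 0.1), no filter, a mean FPKM of at least 1, median-ratio scaling, 1 fit over all 4 groups, the replicate number as a block, a Y-linked covariate, counts divided by 4 and leaving out each library were alternatives. Chosen after the data were seen were the Myh7 and fibroblast covariates, the fits without libraries holding liver transcripts, and the split by Y-linked transcripts, for which a model with group, Y-linked state and their interaction was fitted per comparison. On simulated data for treadmill against control (14772 genes, 200 changed), edgeR recovered 125, limma 124, DESeq2 162 and the permutation test 0, with 8, 8, 52 and 0 unchanged genes called.

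The members and gene lists were chosen with earlier results of these data known. Named were all members, list genes with an adjusted p under 0.05 or meeting the criterion, at most 8 per list by smallest p, the 3 most abundant genes of a list, and the 3 transcripts most like each member, of which 1 is not reported here; the receptors Il15ra, Igf1r and Igf2r were added after their values were seen. Figures were drawn with matplotlib 3.10.9.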

Additional observations from a re-analysis of the deposited data

Results flagged for a closer look

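In 84 groups of 6 libraries, 10 had a highest library whose gap to the next exceeded Dixon's 95% critical value. For independent, normally distributed values, about 1 in 20, or 4.2, would be flagged. FPKM values are bounded at 0, the groups share libraries and the list genes were named by the criterion, so these numbers do not measure an excess. Mstn was at 11.8 FPKM in catgut 1 replicate 3 (next 6.11 FPKM), which was also the highest catgut 1 library for Stat5b, at 31.1 FPKM (next 21.4 FPKM). Treadmill replicate 2 was the highest treadmill library for Fst (6.58 FPKM, next 1.99 FPKM), Il15 (36.1 FPKM, next 24.3 FPKM) and Jak3 (0.673 FPKM, next 0.304 FPKM). Jak3 was also at 0.942 FPKM in control replicate 4. Igfbp1 was at 0.880 FPKM in control replicate 2 and 0.113 FPKM in catgut 2 replicate 2, Il6 at 0.633 FPKM in catgut 1 replicate 5 (next 0.153 FPKM) and Angptl4 at 13.1 FPKM in catgut 1 replicate 1 (next 6.27 FPKM).

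For 6 of 42 pairs of a member and a comparison, the effect differed between libraries with and without Y-linked transcripts at an unadjusted p under 0.05, and 0 of 42 did after adjustment by edgeR. Of all tested genes, 2.36% to 9.49% had an unadjusted p under 0.05 for such a difference, depending on the comparison. The differences in log2 fold change were -2.34 and -1.42 for Mstn (treadmill and catgut 1 against control), 0.46 and 0.57 for Igf2 (catgut 1 and catgut 2 against control), and 1.35 for Igf1 and 0.55 for Il15 (catgut 1 against treadmill).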

How the results depend on the processing

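Over 155 counts of members with an adjusted p under 0.05 in alternative settings, 0 were above 0, and the lowest adjusted p was 0.0534 (Igf2, catgut 1 against control, DESeq2). Of 1079 alternative fold changes of members, 1007 kept their direction and 72 turned, 38 of them when 1 library was left out; the cause was not tested. By the criterion, Mstn gave 1 member instead of 0 in treadmill against control with no filter, DESeq2, limma on log2(FPKM + 1), counts divided by 4, the Myh7 or fibroblast covariate and without the liver transcript libraries, and leaving out 1 library gave 0 to 1 (1 without control replicate 1, 3 or 5 or treadmill replicate 1 or 2). Catgut 2 against control gave 1 without the liver transcript libraries and 0 to 2 with 1 library left out (above 0 without control replicate 2 or catgut 2 replicate 2, 3, 4 or 5). Catgut 1 against treadmill gave 1 with the Y-linked or Myh7 covariate, 2 without the liver transcript libraries and 0 to 2 with 1 library left out (above 0 without treadmill replicate 2 or catgut 1 replicate 1), and catgut 2 against treadmill gave 1 with the fibroblast covariate. The mean FPKM of at least 1 left Igf1 out.

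Log2 fold changes that turned were, with the Myh7 covariate, Mstn 0.064 and Metrnl -0.057 (catgut 1 against control), Mstn 0.29, Fst 0.21, Il15 0.078 and Fndc5 -0.018 (catgut 2 against control), Fst 0.38 and Fndc5 -0.33 (catgut 2 against treadmill) and Mstn 0.011 (catgut 2 against catgut 1). With the fibroblast covariate, they were Fndc5 0.068 (catgut 1 against treadmill) and Igf1 -0.16 and Igf2 -0.031 (catgut 2 against treadmill). Without the liver transcript libraries, they were Fst -0.19 (treadmill against control), Metrnl -0.11 (catgut 1 against control) and Igf1 0.059 (catgut 1 against treadmill). On the FPKM scale, they were Fst 0.0012 at + 0.1 (catgut 1 against control), 0.0032 at + 1 and 0.11 at + 0.1 (catgut 2 against control), and 0.020 and 0.11 (catgut 2 against catgut 1), and Fndc5 0.00051 and 0.00086 (catgut 1 against treadmill). Igf2 in catgut 2 against treadmill, at 0.00083, moved to -0.011 (mean FPKM of at least 1), -0.0015 (median ratios), -0.0014 (DESeq2), -0.0029 (1 fit over all 4 groups), -0.011 (Y-linked covariate) and -0.0055 (counts divided by 4).

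Leaving out 1 library turned Fst in all 6 comparisons, with ranges of -0.14 to 1.07 (treadmill against control), -0.31 to 0.33 (catgut 1 against control), -0.32 to 0.29 (catgut 2 against control), -0.99 to 0.064 (catgut 1 against treadmill), -0.95 to 0.025 (catgut 2 against treadmill) and -0.21 to 0.21 (catgut 2 against catgut 1). It also turned Mstn (-0.50 to 0.011 in catgut 1 against control, -0.053 to 0.80 in catgut 2 against treadmill, -0.73 to 0.036 in catgut 2 against catgut 1), Metrnl in catgut 1 against control (-0.11 to 0.22), Fndc5 in catgut 1 against treadmill (-0.21 to 0.11), and, in catgut 2 against treadmill, Igf1 (-0.12 to 0.15), Igf2 (-0.12 to 0.11) and Il15 (-0.0050 to 0.21).

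Same-numbered libraries of different groups did not deviate together: 36 correlations of their deviations ran from -0.49 to 0.28 with a median of 0.051, and 9 were over 0.1, so the numbers were not taken to pair rats. With the replicate block, 0 members were called in all 6 comparisons, and Fst turned to 0.059 (catgut 1 against control), 0.096 (catgut 2 against control) and 0.12 (catgut 2 against catgut 1). Over all genes, the number with an adjusted p under 0.05 was 8 in treadmill against control (7 with the block, 15 in 1 fit over all groups, 112 by DESeq2, 0 by the permutation test), 3 in catgut 1 against control (1, 20, 162 and 0), 75 in catgut 2 against control (0, 94, 695 and 0), 7 in catgut 1 against treadmill (2, 4, 139 and 0), 35 in catgut 2 against treadmill (3, 54, 309 and 0) and 1 in catgut 2 against catgut 1 (0, 0, 8 and 0). In the simulation the permutation test recovered 0 of 200 changed genes, so its adjusted counts say nothing. Fst, with 19 to 450 counts, and Igf1, with 31 to 237, are the least deeply sampled members.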
